A study of Mus musculus with 16 samples.

Results

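The miR-17-92 cluster is a set of microRNAs cut from 1 primary transcript, and 9 of its mature products were followed here through growth and differentiation of C2C12, mouse myoblasts grown as a line, whose cells join into myotubes in low serum. The members were chosen by name: every listed sequence whose miRNA name, freed of mismatch notes and with name variants merged as described below, was miR-17-5p, miR-17-3p, miR-18a-5p, miR-18a-3p, miR-19a-3p, miR-20a-5p, miR-19b-3p, miR-92a-3p or miR-92a-1-5p. All 9 were found among 2274 miRNA names, and all 9 were among the 807 names that passed the filter on low counts. The 16 small RNA libraries form 4 groups of 4. Control cells are labelled wild-type C2C12, and tKO cells are C2C12 clones in which the genes of miR-206 and of both miR-1a hairpins (miR-1a-1, miR-1a-2) were knocked out; all cells are described as PAX7-negative. Both genotypes were sampled in growth medium (GM, 20% fetal serum, at about 80% confluency) and after 3 days in 2% horse serum (DM3), when the label reads myotubes. Each group holds 2 lines, either control populations 1 and 2 or tKO clones C1 and C2 (called lines 1 and 2 below), with replicates 1 and 2 of each, so a group of 4 is not a set of 4 independent lines, and p-values measure only the spread between these libraries.

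Animal microRNAs are cut from a hairpin in a longer transcript, first by Drosha in the nucleus and then by Dicer, and 1 of the 2 arms is usually kept as the guide strand that directs Argonaute to messenger RNAs, chiefly through its seed, bases 2 to 8. The cluster is activated by MYC and E2F factors, is abundant in dividing cells and tumours, and represses genes that restrain growth or promote cell death, such as Cdkn1a and Bcl2l11. Differentiating myoblasts leave the cell cycle, so a proliferation-linked cluster is of interest between GM and DM3, and the deletion of muscle microRNAs adds the question of whether it behaves alike without them.

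The 6 hairpins, Mir17, Mir18, Mir19a, Mir20a, Mir19b-1 and Mir92-1, lie in this order on the plus strand of chromosome 14 between 115043671 and 115044506 (GRCm38, the build called mm10), a span of 836 bases. In GENCODE M21 they all fall within an exon of the host gene Mir17hg (chr14:115042879-115046727), a long non-coding RNA. Their guide strands fall into 4 seed groups, and the sequences are shown from RefSeq (GRCm38.p6) with the seed in capitals, because the seed decides which members can act on the same sites.
miR-17-5p: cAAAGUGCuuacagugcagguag
miR-20a-5p: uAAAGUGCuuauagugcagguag
miR-18a-5p: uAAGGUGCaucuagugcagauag
miR-19a-3p: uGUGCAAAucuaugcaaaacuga
miR-19b-3p: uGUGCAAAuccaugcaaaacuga
miR-92a-3p: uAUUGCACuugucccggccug
The remaining members are the opposite strands of 3 of these hairpins, and their seeds (also in capitals) differ from the guide seeds.
miR-17-3p: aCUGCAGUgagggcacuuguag
miR-18a-3p: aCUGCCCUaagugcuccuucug
miR-92a-1-5p: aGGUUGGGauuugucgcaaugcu
All 9 matched a RefSeq entry, and each mature sequence was also listed as such in the deposited tables. miR-19b-3p and miR-92a-3p are also encoded by Mir19b-2 and Mir92-2 on chromosome X, so reads of these 2 strands cannot all be assigned to chromosome 14. The other 7 have a hairpin on chromosome 14 only.

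Depth ran from 112792 to 6543570 reads per library, and 3 reads correspond to 0.458 to 26.6 CPM (reads per 1000000 reads of the library). The tKO DM3 library of line 1, replicate 1 stood apart: it had the fewest reads, 47.3% of them matched a hairpin and 35.4% carried the names miR-6240 or miR-6236, while in the other 15 libraries the hairpin match ran from 68.1% to 90.8%. Values without it are given beside the main results of the members in tKO DM3. Signs of read quality also moved with the medium. In control, the hairpin match was 89.1% to 90.8% in GM and 68.1% to 85.1% in DM3, reads under 18 nt were 1.88% to 2.95% and 4.76% to 12.8%, and miR-6240 and miR-6236 held 0.555% to 1.6% and 4.85% to 17.1%, with no overlap. In tKO the hairpin match was 82.5% to 90.8% in GM and 47.3% to 89.3% in DM3, with overlap. The deleted microRNAs checked the labels. In the control libraries miR-206-3p was at 883 to 1787 TMM-scaled CPM in GM and 14103 to 60645 in DM3. In tKO it was at 1.03 to 18.2 in GM and 0.817 to 53.6 in DM3. miR-1a-3p was at 4.12 to 11.4 in control GM, on few reads, and at 25.4 to 147 in control DM3. In tKO it was at 0 to 2.55 in GM and 0 to 6.26 in DM3. The muscle marker miR-133a-3p was at 3.34 to 18.3 in control GM and 1009 to 1691 in control DM3, and at 2.6 to 8.27 and 56.1 to 720.4 in tKO. Markers of blood cells summed to at most 4.32 CPM in every library, those of endothelium to 2.42 to 25.3 and those of epithelium to 2.02 to 23.2, and the neuronal miR-124-3p was at 0.

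Together the 9 members held 2.28% ± 0.745 of the reads in control GM, 2.06% ± 0.341 in tKO GM, 0.623% ± 0.151 in control DM3 and 0.595% ± 0.108 in tKO DM3 (SD, n = 4 each). The lowest GM library, at 1.6%, was above the highest DM3 library, at 0.791%, so the 2 media did not overlap in either genotype. The library that stood apart was at 0.544%, inside the range of the other tKO DM3 libraries. The read quality that differed between the media moved with this share, and its part was not tested. miR-92a-3p was the bulk of these reads, at 76.5% to 90.2% of the cluster in control GM and 74.4% to 86.7% in tKO GM. Its part was smaller in DM3, at 65.5% to 75.8% in control and 61.5% to 71.2% in tKO.

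**Figure D1:**
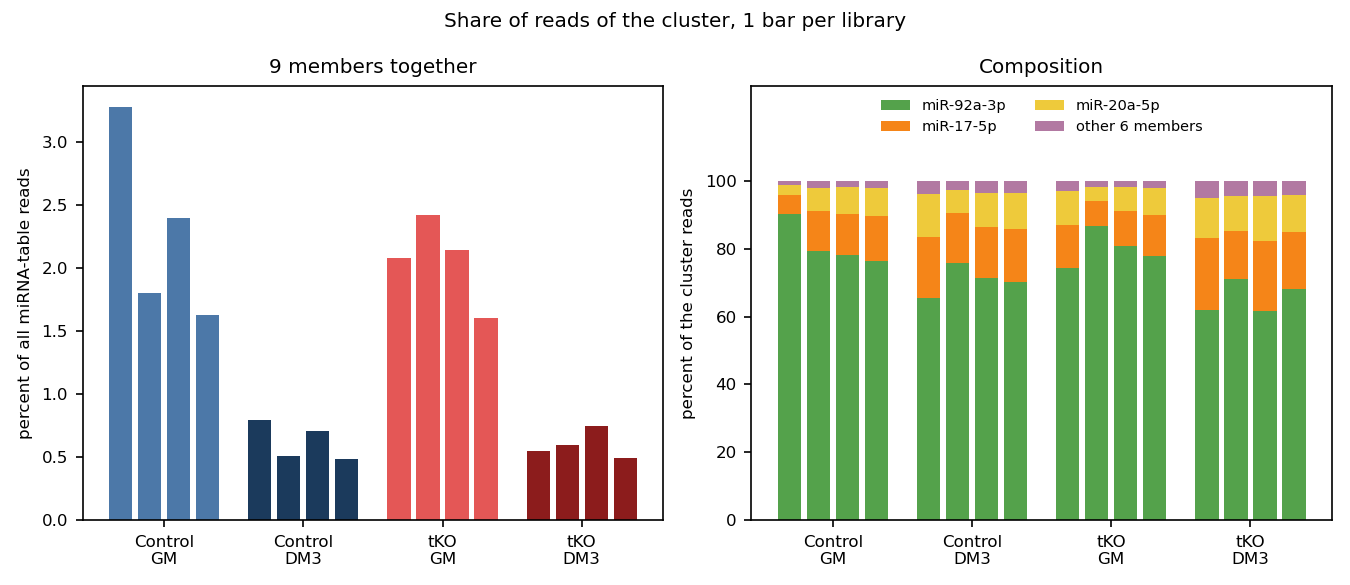
Left, the percent of all reads in the miRNA tables that carried 1 of the 9 member names; right, how these reads divided among miR-92a-3p, miR-17-5p, miR-20a-5p and the other 6 members; 1 bar per library, in the order line 1 replicates 1 and 2, line 2 replicates 1 and 2. All 8 GM bars on the left lie at 1.6% or above and all 8 DM3 bars at 0.791% or below.

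Members differed in level by over 2 orders of magnitude. On the TMM-scaled CPM scale (CPM after edgeR's correction for composition), control GM held 21574 ± 7523 of miR-92a-3p, 2652 ± 739 of miR-17-5p and 1595 ± 577 of miR-20a-5p (SD, n = 4). The other 6 lay between 31.9 ± 4.65 for miR-19a-3p and 136 ± 45.2 for miR-18a-3p, with miR-18a-5p at 95 ± 39.3, miR-19b-3p at 76.6 ± 34.7, miR-92a-1-5p at 65 ± 13.3 and miR-17-3p at 63 ± 13.6. Neighbours among these 5, from miR-18a-3p down to miR-17-3p, were closer than the larger SD of the pair, while miR-19a-3p lay below the rest. The mature strands are 21 to 23 nt long, and neither read length nor the ends of the reads were tested against these levels.

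The first question is how the cluster changed when control myoblasts were differentiated. Of the 9 members, 7 fell in control DM3 against GM at an edgeR quasi-likelihood, Benjamini-Hochberg adjusted p under 0.05, where 11.8% of the 807 names tested fell; none rose. The median log2 fold change of the 9 was -1.54, against 0.02 over all names tested. The lower hairpin match of the control DM3 libraries moved with this decrease, and its part was not tested. In 8 of the 9 the highest DM3 library was below the lowest GM library, a pattern found for 15.7% of names. Across the samples of bulk cultures, fewer cells that express a microRNA and less of it per cell cannot be told apart.

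miR-92a-3p, whose seed it shares with miR-25-3p, miR-32-5p, miR-92b-3p and miR-363-3p, stood at 31231 and 16075 TMM-scaled CPM in control GM line 1 and at 23834 and 15155 in line 2 (replicates 1 and 2 in each case). In control DM3 it was at 3666 and 3414 in line 1 and at 4654 and 3609 in line 2. Every DM3 library was below every GM library by more than 3-fold. This is a log2 fold change of -2.49 (SE 0.29; edgeR adjusted p = 1.37e-05), a level 5.62-fold lower.

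miR-92a-1-5p, the opposite strand of the chromosome 14 hairpin of miR-92a and a product of that hairpin alone, was at 47.4, 69.6, 64.1 and 79 TMM-scaled CPM in control GM, in the same order of libraries. In control DM3 it was at 0, 0.964, 6.94 and 7.41. Behind these were 23, 341, 96 and 424 reads in GM and 0, 1, 3 and 21 reads in DM3, so the DM3 level rests on 25 reads in all, and the library without a read had a floor of 12.1 CPM. The fit gave a log2 fold change of -3.87 (SE 0.55; edgeR adjusted p = 7.45e-05), and the groups did not overlap.

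miR-17-5p and miR-20a-5p share a seed with each other and with miR-93-5p, miR-106a-5p, miR-106b-5p and miR-20b-5p. In control GM miR-17-5p was at 1964, 2344, 3686 and 2612 TMM-scaled CPM, and in control DM3 at 1009, 663, 985 and 809. It was 3.06-fold lower in DM3 (log2 fold change -1.61, SE 0.32; edgeR adjusted p = 0.00106). miR-20a-5p went from 986, 1425, 2369 and 1599.8 to 704, 302, 654 and 536, a log2 fold change of -1.54 (SE 0.39; edgeR adjusted p = 0.00617). Both strands were highest in the same GM library, line 2 replicate 1, and lowest in the same DM3 library, line 1 replicate 2.

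Of the remaining members, miR-18a-5p had a log2 fold change of -1.57 (SE 0.49; edgeR adjusted p = 0.0205) and its opposite strand miR-18a-3p of -1.22 (SE 0.35; adjusted p = 0.0142). miR-17-3p fell by 1.07 on the log2 scale (SE 0.37; edgeR adjusted p = 0.0379). The 2 members with the miR-19 seed did not pass: miR-19a-3p had a log2 fold change of -1.08 (SE 0.57; edgeR adjusted p = 0.171) and miR-19b-3p of -0.65 (SE 0.48; adjusted p = 0.34). miR-19b-3p stood in control GM at 37.1, 70.7, 122 and 76.9 TMM-scaled CPM and at 68.4, 23.1, 43.9 and 62.1 in control DM3, and it was the only member whose groups overlapped in control.

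**Figure D2:**
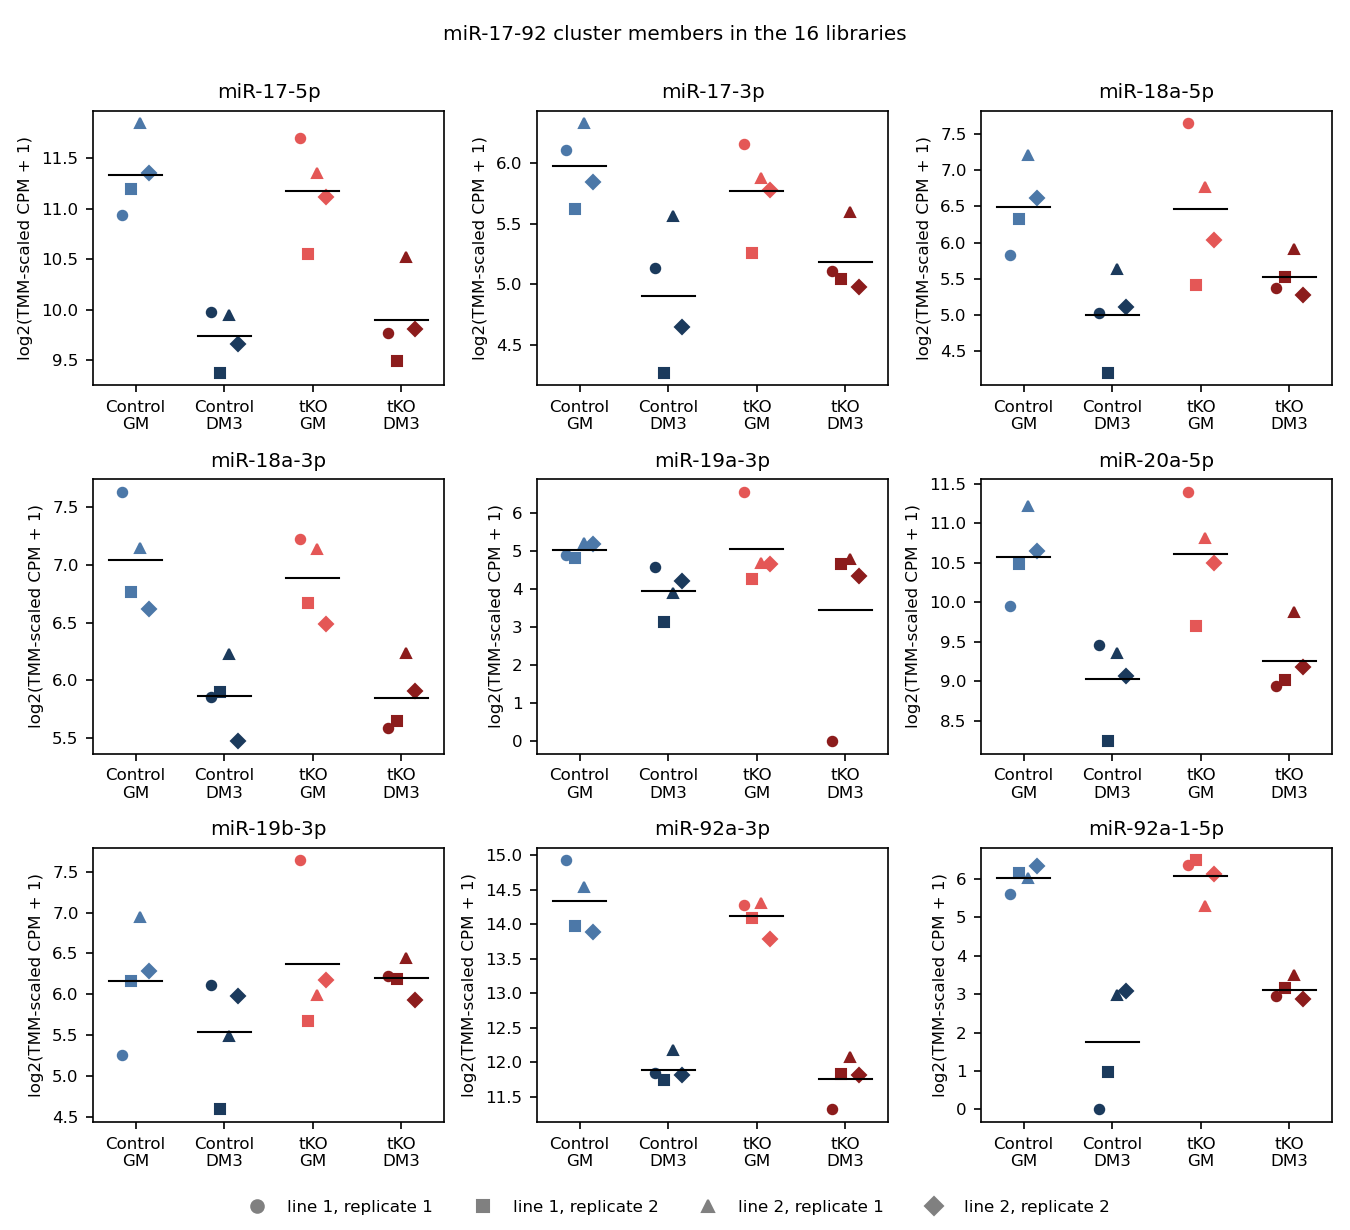
Each panel shows 1 member on a log2(TMM-scaled CPM + 1) axis, with 1 point per library (marker shape gives line and replicate), the 4 groups side by side and a bar at the mean of the plotted log2 values. miR-92a-3p and miR-92a-1-5p leave a wide gap between GM and DM3 in both genotypes, while the points of miR-19b-3p mix; the point at 0 for miR-19a-3p is the smallest library, with 112792 reads.

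In the tKO cells 5 of the 9 members fell between GM and DM3, where 8.3% of the names tested fell, and none rose (edgeR). Their median log2 fold change was -1.18, against 0.01 over all names tested, and for 4 of the 9 the libraries of the 2 media did not overlap, against 9.54% of names. miR-92a-3p went from 19778 and 17424 (line 1) and 20243 and 14134 (line 2) TMM-scaled CPM in GM to 2551, 3626, 4331 and 3589 in DM3. It fell by 2.34 on the log2 scale (SE 0.29; edgeR adjusted p = 3.18e-05). miR-92a-1-5p went from 81.6, 88.7, 38.4 and 69.2 to 6.69, 7.9, 10.3 and 6.34, a log2 fold change of -3.14 (SE 0.52; adjusted p = 0.000529), with 1, 29, 8 and 27 reads behind the DM3 values.

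miR-17-5p was at 3321, 1494, 2622 and 2218 TMM-scaled CPM in tKO GM and at 870.3, 716, 1466 and 892 in tKO DM3. It fell by 1.29 on the log2 scale (SE 0.32; edgeR adjusted p = 0.00857), and its highest DM3 library was just under its lowest GM library. miR-20a-5p had a log2 fold change of -1.43 (SE 0.39; edgeR adjusted p = 0.0155), with 1 DM3 library at 936 above 1 GM library at 832. miR-18a-3p passed narrowly (-1.04, SE 0.35; edgeR adjusted p = 0.0444). miR-18a-5p, miR-17-3p, miR-19a-3p and miR-19b-3p did not pass: their log2 fold changes were -1.18, -0.61, -0.97 and -0.39, and the adjusted p-values from edgeR 0.0923, 0.265, 0.237 and 0.624.

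Without the library that stood apart, 4 of the 9 were called in tKO, all lower, against 140 of 860 names in either direction. miR-92a-3p then had a log2 fold change of -2.22 (edgeR adjusted p = 0.000112), miR-92a-1-5p of -3.10 (adjusted p = 0.000455), miR-17-5p of -1.26 (adjusted p = 0.0252) and miR-20a-5p of -1.36 (adjusted p = 0.0432). miR-18a-3p no longer passed, at -0.99 (edgeR adjusted p = 0.0983). Its own call also ended in 23 of 31 alternatives, and that of miR-17-3p in control in 14 of 30. The control call of miR-18a-3p ended in 9 of 31 alternatives and that of miR-18a-5p in 5 of 30. Single GM libraries also set the counts: Without control GM line 2 replicate 1, 4 members were called in control, of 179 called among 871 names. Without tKO GM line 1 replicate 1, 3 were called in tKO, of 130 called among 891 names.

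Scaling bears on the size of these changes. With reads divided by the library total alone the median of all names moved from 0.02 to 0.39 (log2) in control and from 0.01 to 0.24 in tKO, and all 9 members were still lower in DM3 in both genotypes. Under that scaling 215 of 807 names passed in control and 152 of 807 in tKO, with the same 4 members among them in each: miR-92a-3p (-2.10 and -2.09), miR-92a-1-5p (-3.61 and -2.96), miR-17-5p (-1.17 and -0.97) and miR-20a-5p (-1.08 and -1.09), with edgeR adjusted p-values from 7.91e-05 to 0.041. miR-122-5p, a liver microRNA listed as a marker of another cell type, moved with the medium too, from a range of 4.12 to 33.4 TMM-scaled CPM (control libraries in GM) to 0 to 2.89 (in DM3), and from 22.7 to 62.8 to 0 to 7.62 in tKO; its part in the change of the members was not tested. The 3 epithelial markers summed to 10.2 to 18.4 CPM in control GM and 2.51 to 6.48 in control DM3, without overlap, and to 2.02 to 23.2 and 4.07 to 15.5 in tKO; their part was not tested either.

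**Figure D3:**
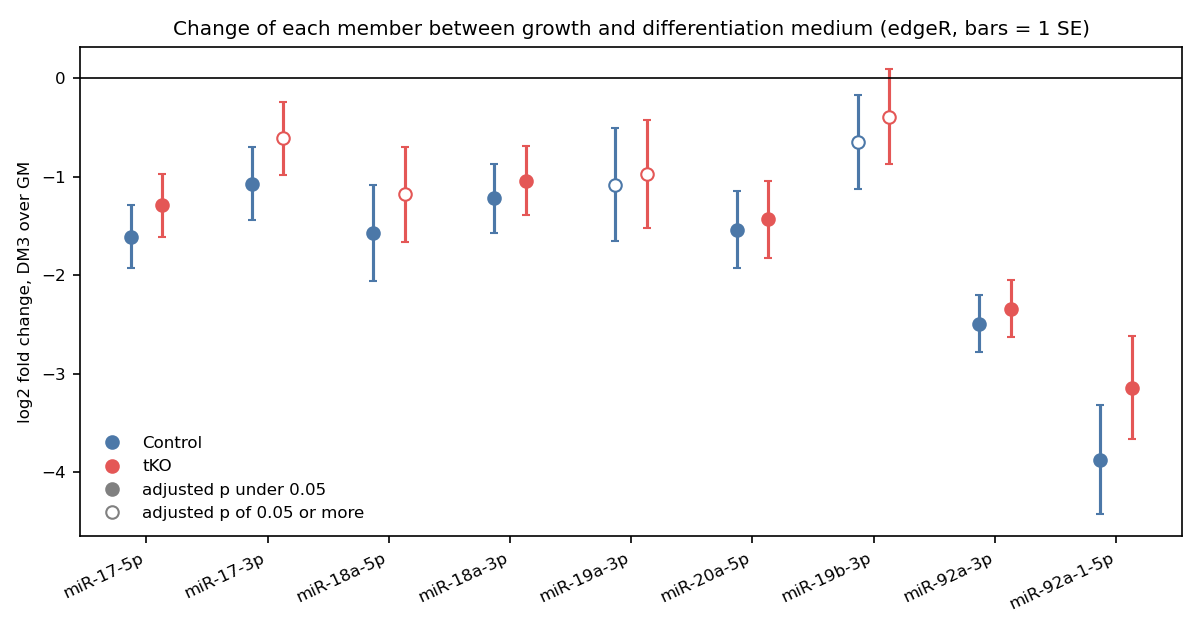
Log2 fold change of DM3 over GM for each member in control and tKO from the edgeR fit, with bars of 1 SE; filled points had an adjusted p under 0.05. The points of all 9 members lie below 0 in both genotypes, from -0.39 for miR-19b-3p in tKO to -3.87 for miR-92a-1-5p in control.

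The second question is whether the loss of miR-206 and miR-1a changed the cluster. In GM, 0 of 9 members differed between tKO and control by edgeR, where 1.12% of all names did, and 0 of 9 had groups that did not overlap, against 8.92% of names. Their log2 fold changes ran from -0.27 for miR-92a-3p (SE 0.27; edgeR adjusted p = 0.937) to 0.31 for miR-19a-3p (SE 0.53; adjusted p = 0.971). In DM3, 0 of 9 differed, where 0.867% of all names did, and 0 of 9 did not overlap, against 4.71%. There the values ran from -0.12 for miR-92a-3p (SE 0.27; edgeR adjusted p = 0.891) to 0.81 for miR-92a-1-5p (SE 0.58; adjusted p = 0.579). The latter rests on 0, 1, 3 and 21 reads in control DM3 and on 1, 29, 8 and 27 in tKO DM3. When only the DM3 groups were fitted, 8 members passed the filter and 0 were called, against 4 of 517 names. At an unadjusted p under 0.05 the count was 0 of 9 in each medium, against 65 of 807 names in GM and 90 in DM3, and a DESeq2 Wald test called 0 of 9 in each, against 20 and 19 names. Without the library that stood apart 0 of 9 were called in DM3, against 53 of 860 names, with miR-92a-3p at 0.08 and miR-92a-1-5p at 0.86. The signs in GM were not stable: 4 of 9 members were lower in tKO, against 9 of 9 with replicate number 2 alone and 8 of 9 without tKO GM line 1 replicate 1.

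These tests do not show that the genotypes were alike. For miR-92a-3p in GM, 2 SE around the estimate reach from -0.81 to 0.27 on the log2 scale, and for miR-17-5p from -0.77 to 0.50. For miR-19a-3p they reach from -0.75 to 1.37, so a change of over 2-fold in that member would not have been told from none. The same holds in GM for miR-19b-3p and miR-18a-5p, with upper ends of 1.24 and 1.03. In DM3 it holds for miR-92a-1-5p, miR-19a-3p, miR-19b-3p, miR-18a-5p and miR-17-3p, with upper ends of 1.96, 1.58, 1.54, 1.48 and 1.03.

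The interaction, the difference between the change in tKO and the change in control, was called for 0% of the 807 names and 0 of 9 members by edgeR, with 37 names and 0 members at an unadjusted p under 0.05 and 0 names by DESeq2. The members' interaction ran from 0.11 for miR-19a-3p to 0.73 for miR-92a-1-5p (log2, SE 0.78 and 0.73), with adjusted p-values from 0.937 to 0.991. For each, the interval of 2 SE around the estimate included 0. All 9 estimates were above 0 here, but 4 were below 0 with reads that match a hairpin, 4 with replicate number 1 alone, 3 without control GM line 2 replicate 1, 1 with total count scaling and 1 or 2 in 7 other alternatives. Without the library that stood apart 0 members were called and the estimates ran from 0.27 for miR-20a-5p to 0.79 for miR-92a-1-5p.

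The strands of 1 transcript need not change alike, so each guide strand was set against miR-17-5p within the same library, which removes the scaling between libraries. miR-92a-3p and miR-19b-3p are also encoded on chromosome X, so their ratios can mix both loci and need not reflect the chromosome 14 transcript alone. The part of the chromosome X hairpins in these ratios was not tested. The reads of miR-92a-3p over miR-17-5p had a log2 ratio of 3.00 ± 0.67 in control GM and 2.15 ± 0.21 in control DM3 (SD, n = 4). The 4 GM libraries were at 3.99, 2.78, 2.69 and 2.54 and the 4 DM3 libraries at 1.86, 2.36, 2.24 and 2.16, so the groups did not overlap. The difference was -0.85 (two-sided exact permutation test, p = 0.0286, which is the lowest value possible with 70 assignments of 4 against 4). In tKO the ratio was 2.57, 3.54, 2.95 and 2.67 in GM and 1.55, 2.34, 1.56 and 2.01 in DM3, again with no overlap (difference -1.07, exact permutation p = 0.0286).

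The ratio of miR-19b-3p to miR-17-5p differed in the other direction. Its log2 value was -5.69, -5.05, -4.92 and -5.08 in control GM and -3.86, -4.81, -4.45 and -3.70 in control DM3, a difference of 0.98 with no overlap (two-sided exact permutation p = 0.0286). In tKO it was -4.05, -4.89, -5.38 and -4.96 in GM and -3.50, -3.32, -4.08 and -3.88 in DM3, a difference of 1.12 (exact permutation p = 0.0571), with GM line 1 replicate 1 inside the DM3 range. miR-20a-5p kept within 0.07 of its ratio to miR-17-5p on average (0.05 in control and -0.07 in tKO; exact permutation p = 0.686 in each). The differences of miR-18a-5p were 0.08 and 0.35 (exact p = 0.771 and 0.257) and those of miR-19a-3p 0.52 and 0.14 (exact p = 0.114 and 0.914). Without the library that stood apart, which had 0 reads of miR-19a-3p, the tKO differences were 0.80 for miR-19a-3p (exact permutation p = 0.143), 0.33 for miR-18a-5p, -0.01 for miR-20a-5p, 1.06 for miR-19b-3p (exact p = 0.0857) and -0.96 for miR-92a-3p (exact p = 0.0286). These are 10 comparisons, and the Benjamini-Hochberg adjusted value of the 3 smallest exact p-values is 0.0952, so none passed after adjustment. Without control GM line 1 replicate 1, the highest library, the control difference of miR-92a-3p was -0.52 (exact permutation p = 0.0286, again the lowest value possible). In 5 of 11 alternatives the exact p of miR-92a-3p in control was above 0.05, at up to 0.0571. That was also so in 5 of 11 for miR-19b-3p in control and in 3 of 11 for miR-92a-3p in tKO.

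**Figure D4:**
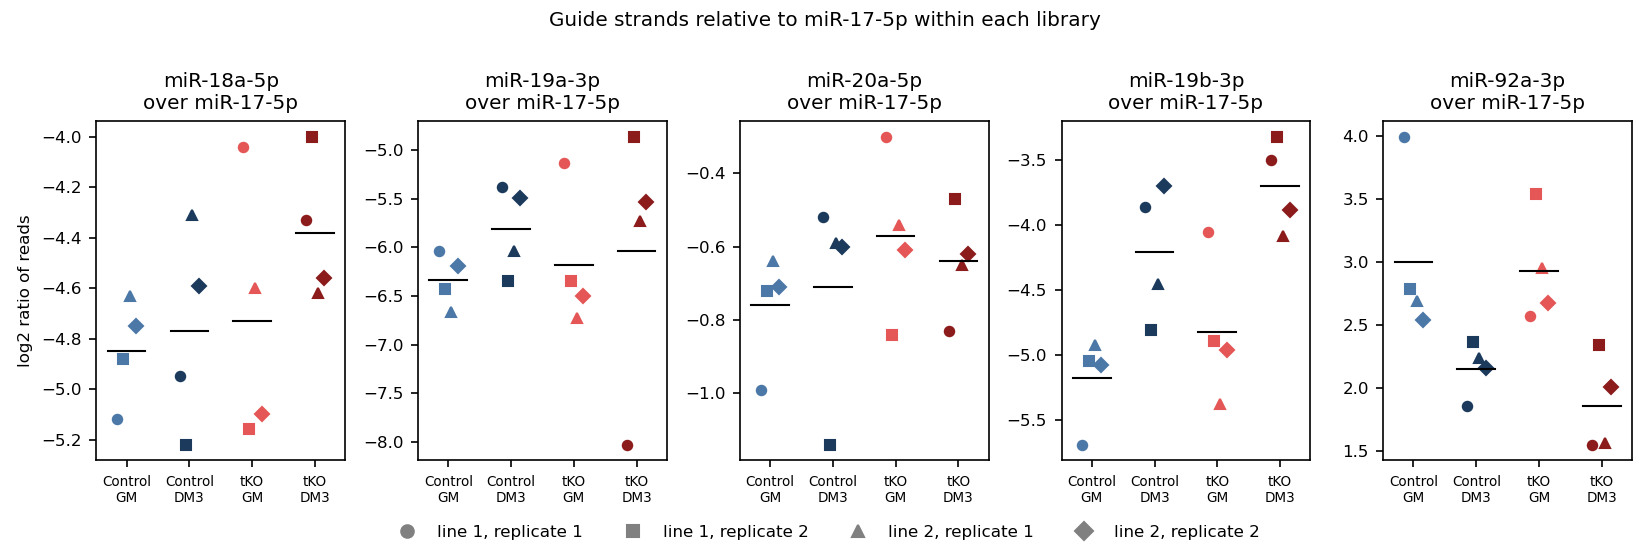
Log2 ratio of the reads of 5 guide strands to those of miR-17-5p (0.5 reads added to each), 1 point per library, with the 4 groups side by side and a bar at the mean; the panels have different axes. The points of miR-92a-3p in DM3 lie below those in GM in both genotypes, those of miR-19b-3p lie above them in control and overlap in tKO, and miR-20a-5p stays between -1.14 and -0.30.

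The 2 arms of the hairpins were compared next, as the log2 ratio of the 5p to the 3p strand, in 216 hairpins with limma. For Mir17 the 5p arm dominated, at 5.37 ± 0.36 in control GM, 5.43 ± 0.11 in tKO GM, 4.85 ± 0.34 in control DM3 and 4.71 ± 0.22 in tKO DM3 (SD, n = 4). The difference between DM3 and GM was -0.52 in control and -0.72 in tKO (limma adjusted p = 0.212 and 0.102). For Mir18 the arms were near balance, with means from -0.88 to -0.33 in the 4 groups and SDs of up to 0.88. For Mir92-1 the 3p arm dominated: the log2 ratio of miR-92a-1-5p to miR-92a-3p was -8.32 ± 0.78 in control GM and -10.15 ± 1.30 in control DM3, a decrease of -1.83 (SE 0.58; limma adjusted p = 0.034), where 21.8% of hairpins were called. With 1 read added in place of 0.5 the decrease was -1.43 and no longer passed (limma adjusted p = 0.0672). The call also ended when control GM line 1 replicate 2, line 2 replicate 1 or line 2 replicate 2, or control DM3 line 1 replicate 1 or line 1 replicate 2, was left out (-1.67, -1.89, -1.58, -1.43 and -1.47; limma adjusted p from 0.0592 to 0.108). In tKO it was -0.58 (limma adjusted p = 0.534), where 14.8% were called, and -0.80 without the library that stood apart (adjusted p = 0.47), which had 1 read of miR-92a-1-5p. Since miR-92a-3p is also encoded by Mir92-2, the ratio given for Mir92-1 can include reads of that hairpin.

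miR-20a-3p, the opposite strand of Mir20a, is no member but enters the arm ratio. Its TMM-scaled CPM was 4.77 ± 1.54 in tKO GM and 7.8 ± 2.57 in tKO DM3 (SD, n = 4) while miR-20a-5p fell. The difference of miR-20a-3p itself was not called (log2 fold change 0.79, edgeR adjusted p = 0.326), and its groups overlapped. It rested on 4 to 29 reads per library in tKO GM and 1 to 41 in tKO DM3. The arm ratio of Mir20a differed by -2.17 (SE 0.71, limma adjusted p = 0.0515). With 1 read added in place of 0.5 it was -2.24 and passed (limma adjusted p = 0.0254), and without the library that stood apart, with 1 read of miR-20a-3p, it was -1.99 (adjusted p = 0.105). In control it was -0.81 (limma adjusted p = 0.434). Between genotypes the arm ratios of Mir17, Mir20a and Mir92-1 were not called, where 0.463% of hairpins were in GM and 0.463% in DM3. The nearest to a call was Mir92-1 in DM3, at a log2 difference of 1.51 (SE 0.58, adjusted p = 0.272 by limma). It was among the 29 of 216 hairpins with an unadjusted limma p under 0.05 in DM3, against 5 of 216 in GM. In control DM3 its log2 ratios were -11.33 and -11.21 in line 1, on 0 and 1 reads of miR-92a-1-5p. They were -9.17 and -8.89 in line 2. In tKO DM3 they were -7.99, -8.82, -8.64 and -9.12.

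The reads also show where the members end. The exact mature sequence made up 59.2% of the reads of miR-20a-5p, 62.4% of miR-18a-5p, 45.7% of miR-17-5p and 48.5% of miR-92a-1-5p over all libraries. It was lower for miR-19b-3p (22.9%), miR-18a-3p (15%), miR-17-3p (8.83%), miR-19a-3p (5.22%) and miR-92a-3p (1.82%). The most frequent read of miR-92a-3p is printed here with the seed in capitals, in DNA letters, because it sets how its tails are read, beside a read of miR-17-5p.
miR-92a-3p read: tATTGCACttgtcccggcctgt
miR-17-5p read: cAAAGTGCttacagtgcaggtaga
The read of miR-92a-3p held 218477 reads, or 51.2% of that member, and has 1 base more than the mature entry. The read of miR-17-5p, shown for comparison, is its second most frequent, with an added A, at 23.6%. The T that follows miR-92a-3p is the next base of Mir92-1 on chromosome 14; in Mir92-2 on chromosome X the next base is A. Of 386392 reads that run past the full mature sequence, 87% had T next and 3.09% had A. Of 120505 reads with 2 or more further bases, 19825 had the 2 bases of the chromosome 14 hairpin, 232 had those of chromosome X, and most matched neither. In each of the 4 groups T followed in 86.8% to 89% of such reads. A T can also be added after cutting, so these counts describe the ends and do not assign every read to a hairpin.

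The deposited tables count this T as a tail: by their columns 91.5% ± 0.37 of the miR-92a-3p reads in control GM were tailed, and 91.1% to 92.4% on average in the other groups. When only bases not encoded by the hairpin were counted, the share was 34.3% ± 2.58 in control GM, 32% ± 1.08 in tKO GM, 33.6% ± 2.33 in control DM3 and 32.8% ± 4.32 in tKO DM3 (SD, n = 4). This share, here and below, is of the reads that match a hairpin, while the deposited share is of all reads of the member. For miR-17-5p both counts were close, at 40% ± 3.57 and 39% ± 3.25 in control GM, and adenine made up most of these tails: over all libraries 33.6% of the reads placed on the hairpin ended in an added A.

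Of the 8 members tested on tails, 1 was called between DM3 and GM in control, a smaller share than among all names, so the call does not set the members apart. This was miR-18a-3p. As deposited, 51.7% ± 1.76 of its reads were tailed in control GM and 68.8% ± 6.76 in control DM3 (SD, n = 4), a log2 odds difference of 1.02 (SE 0.21; limma adjusted p = 0.00524), where 25.6% of 324 names were called. Counting only bases that the hairpin does not encode, among reads that match a hairpin, the libraries were at 48.1%, 50.7%, 51.4% and 49% in control GM and at 87.5%, 66%, 70% and 54.8% in control DM3, without overlap (difference 1.24, SE 0.40; limma adjusted p = 0.031), where 35.1% of 228 names were called. The library at 87.5% had 20 reads of miR-18a-3p in all, including those without a hairpin match. In tKO the deposited share went from 53% ± 6.9 to 65.3% ± 4.08 (0.69, SE 0.21; limma adjusted p = 0.064), where 8.02% were called, and by the hairpin count the difference was 0.96 (adjusted p = 0.193), where 6.14% were called. The library that stood apart had 7 reads of miR-18a-3p; without it the deposited difference in tKO was 0.60 (limma adjusted p = 0.147), and the hairpin count was not refitted.

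The other 7 members tested on the deposited tails did not pass in either genotype; miR-19a-3p was not tested, because its mean was under 100 reads. It had the highest share after miR-92a-3p, at 58.5% ± 2.53 in control GM and 74.4% ± 7.78 in control DM3 (SD, n = 4), the latter on 8, 8, 6 and 50.5 reads, and over all libraries 40.1% of its placed reads ended in an added T. Between genotypes 0% of names were called in GM and 0% in DM3, with 12 and 30 of 324 at an unadjusted limma p under 0.05. In DM3 miR-92a-3p was among the 30, at -0.23 (SE 0.10, adjusted p = 0.424 by limma), and none of the 8 members tested was among the 12 in GM.

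**Figure D5:**
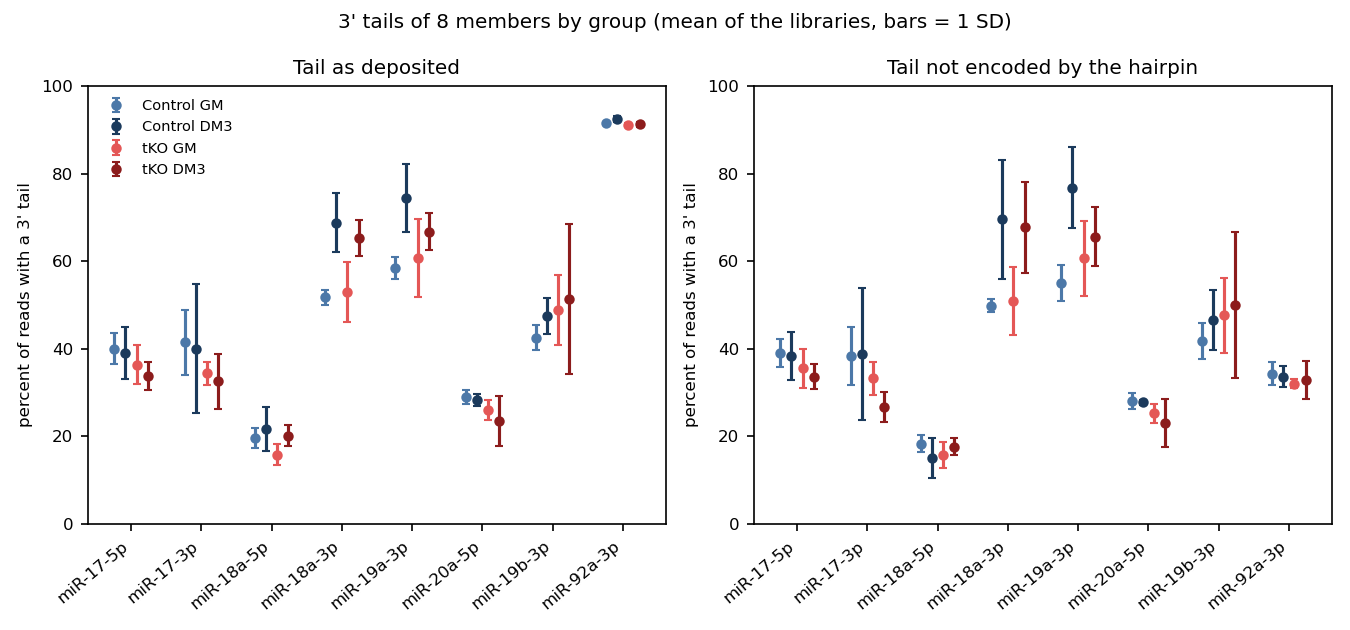
Percent of reads with a 3′ tail for 8 members, as the deposited columns count it (left) and counting only bases that the hairpin does not encode, among reads that match a hairpin (right). Points are means over the libraries of a group with bars of 1 SD, and miR-19a-3p in tKO DM3 has 3 libraries. miR-92a-3p drops from above 91% to between 32% and 34.3%. Apart from miR-92a-1-5p (27% and 20.2% in control DM3), the next largest drop is from 21.7% to 15% for miR-18a-5p in control DM3. That of miR-17-3p in tKO DM3 follows, from 32.5% to 26.7%.

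The cluster has relatives with shared seeds on 2 other chromosomes, and their values are given from the same fit. Of 6 listed products of the related cluster on chromosome X, 2 were abundant enough to be tested: miR-106a-5p fell in both genotypes (-2.10 in control and -1.36 in tKO, log2; edgeR adjusted p = 0.00332 and 0.0435), and miR-20b-5p had -1.07 and -1.25 (adjusted p = 0.137 and 0.0975). These 2 had 428 and 191 reads in all and are close in sequence to miR-17-5p and miR-20a-5p, so their counts are uncertain where reads match several names. On chromosome 5, miR-25-3p fell by 1.70 in control and by 1.20 in tKO (edgeR adjusted p = 0.00312 and 0.0368), miR-106b-5p fell by 1.66 in control (adjusted p = 0.0143) and had -0.39 in tKO (adjusted p = 0.618), and miR-93-5p had -0.75 and -0.61 (adjusted p = 0.174 and 0.312). Of the names elsewhere with the miR-92a seed, miR-32-5p had -1.32 and -1.01 (edgeR adjusted p = 0.0333 and 0.107) and miR-92b-3p -0.87 and -0.53 (adjusted p = 0.19 and 0.464). miR-92a-3p held 426492 of the reads of its seed group over all libraries and miR-25-3p 93878. In the group of miR-17-5p, miR-93-5p held 76902, miR-17-5p 65944 and miR-20a-5p 42131.

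Over the 16 libraries, the non-members most like the mean of the 6 guide strands (Pearson r of TMM-scaled log2 CPM, among 238 names with a mean of at least 100 CPM) were miR-31-5p (0.90), let-7a-5p (0.89), miR-140-3p (0.88), miR-7a-5p (0.87) and miR-15b-3p (0.86). Among the members r ran from 0.66 for miR-19b-3p to 0.97 for miR-20a-5p, which enter that mean themselves. The points share their libraries and scaling, and the medium is the main difference between them: miR-7a-5p, for example, had a mean of 10369 TMM-scaled CPM in the control libraries in GM and 1308 in those in DM3.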

How the data were processed

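Total RNA of 16 C2C12 cultures was made into small RNA libraries of 15 to 50 nt inserts with the NEBNext kit, per the labels' protocols. Per the submitters' processing notes, cutadapt 1.15, STAR 2.5.4 and mm10 were used, with roles not given. The deposited tables, written by unitas per the file headers, list each sequence with its miRNA name, 3′ tail and reads. Reads that match several names were split by the authors, so the values are expected counts (estimated counts that need not be whole), without normalization. The version of unitas and its miRNA release are not given in the sources used here.

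Reads were summed per name, with mismatch notes removed, and rounded for the count tests. A name without an exact listing was merged into a listed name, if 1 was found, by removing its hairpin copy number, adding the letter a or dropping its arm (2510 names became 2274). Names were kept by filterByExpr with a minimum count of 10, leaving 807. All 4 groups entered 1 edgeR 4.0.16 quasi-likelihood fit (R 4.3.3) with TMM scaling and Benjamini-Hochberg adjustment over 807 names at 0.05. Arm ratios (216 hairpins) and tail shares (324 names with a mean of at least 100 reads) were tested with limma 3.58.1 on log2 ratios after adding 0.5 reads to each part. Guide strand ratios were tested by two-sided exact permutation. DESeq2 1.42.0 was an alternative, with other scalings, filters, read selections, depths and left-out libraries. The scripts were tested on simulated data.

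Named were all 9 members and the 5 names most like the guide strands. Of the other products of the members' hairpins, the related clusters and names with shared seeds, those abundant enough to be tested were named. The members and lists were chosen with earlier results of these data known. A floor is 3 counts of a library's total, which ranged from 112792 to 6543570; it covers counting error only, since reads carry no molecular identifiers.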

Additional observations from a re-analysis of the deposited data

Results flagged for a closer look

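Dixon's test was applied to 108 sets of 4 libraries, in which chance flags about 1 in 20, and 8 had a library far from the other 3. In tKO GM, line 1 replicate 1 was high for both members with the miR-19 seed, at 94 TMM-scaled CPM of miR-19a-3p and 199 of miR-19b-3p. The same library had a log2 ratio of miR-20a-5p to miR-20a-3p of 9.18, and control GM line 2 replicate 1 had 9.62. Control GM line 1 replicate 1 had the highest log2 ratio of miR-92a-3p to miR-17-5p in its group, 3.99, and the lowest of miR-17-5p to miR-17-3p, 4.83. In control DM3, line 1 replicate 2 had a log2 ratio of miR-20a-5p to miR-17-5p of -1.14. In the smallest library, tKO DM3 line 1 replicate 1, 83.3% of the miR-18a-3p reads that match a hairpin had a tail that the hairpin does not encode.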

How the results depend on the processing

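Calls of miR-92a-3p and miR-92a-1-5p between DM3 and GM held in both genotypes, and of miR-17-5p in control, under each alternative in which they were tested: miR-92a-3p from -2.80 to -2.09 in control and from -2.50 to -2.09 in tKO, miR-92a-1-5p from -4.84 to -3.55 and from -3.46 to -2.70, and miR-17-5p from -1.90 to -1.17 (log2). The call of miR-17-5p in tKO was lost in 4 of 31 alternatives, and of miR-20a-5p in 1 of 31 in control and 5 of 31 in tKO. The cause was not tested where a value below differs. Few reads lay behind miR-92a-1-5p in DM3 and behind miR-19a-3p, and members were not ranked by how far depth limits them.

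In control, 7 members were called between DM3 and GM. The count was 4 with total count scaling, 5 with reads that match a hairpin and 3 of 5 tested after thinning to the smallest library. It was 3 with replicate number 1 alone and 4 to 7 with a library left out. Of all names 223 of 807 were called, against 114 of 416 with reads that match a hairpin, 110 of 296 after thinning and 85 of 564 with replicate number 1 alone. With a library left out it was 157 to 263 names, of 839 to 891 tested. In tKO, 5 members were called, against 2 with a filter of 1 CPM in 4 libraries, 2 with only the groups compared, 3 of 5 tested after thinning, 2 with replicate number 1 alone, 2 with replicate number 2 alone and 3 to 6 with a library left out. Of all names 159 of 807 were called in tKO, against 126 of 1734 with 1 CPM in 4 libraries and 82 of 689 with only the groups compared. It was 88 of 296 after thinning, 125 of 564 with replicate number 1 alone and 74 of 1170 with replicate number 2 alone. With a library left out 109 to 154 names were called in tKO. miR-19a-3p in tKO was at 0.02 with replicate number 2 alone, and miR-19b-3p at 0.14 after thinning, 0.11 with replicate number 2 alone and -0.62 to 0.22 with a library left out.

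Between genotypes 0 members were called in each medium under all 30 alternatives. Of all names 9 of 807 were called in GM, against 15 of 2274 without a filter, 18 of 1734 with 1 CPM in 4 libraries, 20 of 807 by DESeq2, 18 of 483 without mismatched reads, 15 of 416 with a hairpin match, 2 of 564 with replicate number 1 alone and 5 to 16 with a library left out. In DM3 it was 7, against 14, 15, 19, 13 and 17 in the same order of settings and of the same numbers of names, 4 of 517 with only the groups compared, 1 of 564 with replicate number 1 alone, 70 of 1170 with replicate number 2 alone, and 5 to 53 with a library left out, the 53 of 860 without tKO DM3 line 1 replicate 1. The interaction count ran from 0 to 1. In GM 4 of 9 members were lower in tKO, against 9 with replicate number 2 alone and 8 without tKO GM line 1 replicate 1. With replicate number 2 alone miR-18a-5p was at -0.84, miR-20a-5p at -0.52 and miR-19b-3p at -0.40, and with a replicate block miR-18a-5p was at -0.04. Signs also turned in GM, among others, for miR-17-5p (0.08 with replicate number 1 alone, -0.32 to 0.18 with a library left out), miR-19a-3p (-0.66 with replicate number 2 alone, -0.50 to 0.58) and miR-92a-1-5p (-0.10 with 1 CPM in 4 libraries, -0.05 with replicate number 2 alone, -0.05 to 0.28). In DM3 1 of 9 members was lower in tKO, against 0 to 4 over the alternatives, the 4 without tKO DM3 line 2 replicate 1; miR-18a-3p, at 0.00, was at -0.06 with total count scaling. Among others, signs turned in DM3 for miR-17-5p (-0.09 to 0.33) and miR-92a-3p (0.00 without a filter and 0.00 with names unmerged, -0.25 to 0.08).

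With a library left out, the log2 differences of the ratios to miR-17-5p ran in control from -0.07 to 0.23 for miR-18a-5p, 0.38 to 0.69 for miR-19a-3p, -0.02 to 0.20 for miR-20a-5p, 0.81 to 1.18 for miR-19b-3p and -1.0 to -0.52 for miR-92a-3p. In tKO they ran from 0.20 to 0.58 for miR-18a-5p (0.58 without tKO GM line 1 replicate 1), -0.26 to 0.80 for miR-19a-3p, -0.16 to 0.02 for miR-20a-5p, 0.94 to 1.38 for miR-19b-3p and -1.23 to -0.87 for miR-92a-3p. Arm ratio calls between genotypes were 1 in each medium; in GM they were 0 with a mean of at least 300 reads, 0 without mismatched reads and 0 to 1 with a library left out, and in DM3 0 without mismatched reads and 0 to 3. Arm calls between media were 47 in control (8 with 300 reads, 31 without mismatched reads, 31 to 58) and 32 in tKO (10 with 300 reads, 14 to 42). Tail calls with a library left out were 0 to 1 between genotypes in each medium, 48 to 104 in control and 15 to 32 in tKO, where 13 were called without mismatched reads and 14 by the hairpin. The tail difference of miR-92a-3p was -0.04 by the hairpin in control, and -0.01 to 0.07 in tKO with a library left out. In control it reached 0.33 over the alternatives and passed in 1 of 21 (lowest limma adjusted p = 0.013). The tail difference of miR-18a-3p in tKO passed in 2 of 20 alternatives (lowest limma adjusted p = 0.0299).

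Libraries of the same replicate number in different groups had a mean correlation of deviations of 0.134 (48 pairs, from -0.524 to 0.666), against -0.129 for different numbers; libraries of the same line across media had 0.192 and of different lines -0.183. Since not every pair was positive and the labels tie the numbers to no shared batch, the numbers were not taken to pair the libraries. In all 8 pairs of libraries from 1 line in 1 medium the library of replicate number 2 was the larger, which bears on the pairing and on the alternatives with 1 number alone; its part in them was not tested. With a replicate block 7 members and 241 names were called in control and 5 and 168 in tKO; with the line as a further block it was 7 and 274, and 5 and 193. The replicate block gave 2 arm ratios between genotypes in DM3 and 1 tail share in GM. Permuting within the replicate block left the ratios at 0.98 for miR-19b-3p and -0.85 for miR-92a-3p in control and -1.07 for miR-92a-3p in tKO, each with an exact p of 0.0556, the smallest that 36 assignments allow. The alternatives with 1 replicate number alone and with tails not encoded by the hairpin were chosen after seeing the data.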

Other observations

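The 5′ ends of the members also differed. In miR-17-3p 68.9% of the reads placed on the hairpin began at the mature start, against 85.6% to 100% for the other 8. Of its 2 most frequent reads, each with 14.3% of the reads, 1 began a base later, which moves the seed by 1 base.
miR-17-3p at the mature start: aCTGCAGTgagggcacttgta
miR-17-3p a base later: cTGCAGTGagggcacttgtagc
Of the other products of the cluster hairpins, miR-20a-3p and miR-19b-1-5p were abundant enough to be tested and 0 of these 2 were called by edgeR between DM3 and GM, against 223 of 807 names in control and 159 in tKO: miR-20a-3p had log2 fold changes of -0.63 in control and 0.79 in tKO, and miR-19b-1-5p 0.18 and 0.22.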
